A study of Mus musculus with 55 samples.

Results

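The integrin and laminin genes of the mouse were followed through 10 cell populations sorted from liver. Members were chosen by name: every Itga, Itgb, Lama, Lamb or Lamc symbol of the deposited expression table, with the row of highest mean over all libraries where a symbol had several. This gave 37 of 24478 gene symbols, made up of 18 integrin alpha, 8 integrin beta, 5 laminin alpha, 3 laminin beta and 3 laminin gamma genes. The study sorted each population by FACS (fluorescence-activated cell sorting) from C57B/L6 liver, either normal or after partial hepatectomy (PH, surgical removal of part of the liver), and sequenced RNA from 55 libraries, 27 normal and 28 PH. No genetic alteration and no drug is given for any group, and the labels state neither the time after surgery nor the age of the animals nor which libraries came from the same animal. The epithelial sorts were hepatocytes (HC), biliary epithelial cells (BEC), their clonal fraction (cBEC) and a duct population labelled as non-progenitor (NPD). The others were stellate cells (HSC, the vitamin A storing pericytes), Thy1 cells, endothelial cells (EC), the sinusoidal fraction of endothelium (LSEC), Kupffer cells (KC, the resident macrophages) and blood. HC had 4 libraries under either treatment and LSEC had 3 normal and 5 PH libraries. BEC and cBEC had 4 normal and 2 PH libraries each, HSC, EC and KC had 2 normal and 3 PH, and NPD, Thy1 and blood had 2 and 2.

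Integrins are cell-surface receptors made of 1 alpha and 1 beta chain. The alpha chain largely sets which matrix protein or cell-surface partner is bound, and the beta chain connects the receptor through talin and kindlin to actin. Itgb1 pairs with many alpha chains, whereas Itgb2 and Itgb7 belong to leukocytes and Itgb4 pairs with Itga6 alone. Laminins are secreted trimers of an alpha, a beta and a gamma chain that form the sheet of a basement membrane, and several integrins (those with Itga3, Itga6 or Itga7) are their receptors. In the liver, bile ducts and large vessels rest on such a membrane, while the sinusoids are known for lacking a continuous one.

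3 promoters are shown because their genes carry the contrasts described later. Itgam and Itgax lie in the same cluster of chromosome 7, were both highest in normal blood cells, and differed in their values after PH, while Itga2b, known as a platelet integrin, was highest in stellate cells. Each sequence is the 250 bases before the start of the gene from RefSeq, build GRCm38.p6, written 5′ to 3′ on the strand of the gene. Capitals mark 2 short motifs, searched on both strands and not overlapping each other. The first is GAGGAA, also marked where its reverse complement stands, the core that the myeloid factor PU.1 binds. The second is AGATAA, the core of blood-lineage factors of the Gata family. The spans are chr7:128062390-128062639 (plus strand) for Itgam, chr7:128129300-128129549 (plus strand) for Itgax and chr11:102469884-102470133 (minus strand) for Itga2b.
Itgam: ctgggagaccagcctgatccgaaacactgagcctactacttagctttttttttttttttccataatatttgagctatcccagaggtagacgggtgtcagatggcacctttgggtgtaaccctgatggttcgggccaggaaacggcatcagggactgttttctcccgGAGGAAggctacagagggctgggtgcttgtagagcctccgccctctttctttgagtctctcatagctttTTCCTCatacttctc
Itgax: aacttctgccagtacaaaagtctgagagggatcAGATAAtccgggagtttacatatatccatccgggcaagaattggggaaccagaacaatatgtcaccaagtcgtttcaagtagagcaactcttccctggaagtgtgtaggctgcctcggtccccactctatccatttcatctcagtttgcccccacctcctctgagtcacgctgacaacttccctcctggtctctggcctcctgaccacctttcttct
Itga2b: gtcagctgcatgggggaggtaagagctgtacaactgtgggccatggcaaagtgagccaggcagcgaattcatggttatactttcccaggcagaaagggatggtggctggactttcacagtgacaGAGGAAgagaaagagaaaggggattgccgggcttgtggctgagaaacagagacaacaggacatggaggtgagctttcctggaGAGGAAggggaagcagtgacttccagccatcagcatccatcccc
The Itgam sequence held GAGGAA 84 bases before the start on its own strand and 15 bases before it on the opposite strand. In Itga2b it stood 126 and 44 bases before the start, and Itgax held AGATAA 217 bases before its start. RefSeq promoters were found for 23 of the 37 genes. GAGGAA occurred in 11 of these 23, against 23.1% of 27025 promoters of the same length, and AGATAA occurred in 1 of 23, against 10.3%. These matches describe letters in a window and are not evidence of binding.

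All levels are FPKM, fragment counts scaled to transcript length and to library size, so levels of different genes can be set side by side. The summed FPKM of a library ranged from 624726 to 1203197, the read depth is unknown, and replicates of a group correlated at 0.919 to 0.996 over genes. Population labels were checked with marker lists, each scored as the mean log2(FPKM + 1) of its genes. The hepatocyte list scored 12.6 in normal and 12.1 in PH HC, the duct list 7.99 and 8.14 in cBEC and 7.87 and 8.14 in BEC, and the stellate list 8.69 and 8.54 in HSC. The sinusoidal list scored 9.87 and 8.66 in LSEC, and the Kupffer list 10.9 and 11.2 in KC. The sinusoidal list was also high in other sorts, at 8.62 and 7.89 in EC, 8.82 in normal KC and 8.83 in PH blood. The endothelial list scored 9.16 and 9.01 in EC, beside 9.18 and 9.36 in LSEC. NPD went against its label in part: its mesothelial list (Msln, Upk3b, Wt1, Gpm6a, Lrrn4) scored 9.52 in normal and 9.03 in PH liver, above its duct list at 6.62 and 7.16. Thy1 cells likewise scored 8.12 and 7.29 for the mesothelial list and 7.52 and 8.44 for the endothelial list, beside 7.43 and 6.14 for the Thy1 and portal fibroblast list. PH blood scored 10.2 for the Kupffer list, above every leukocyte list used for blood. One library, PH cBEC 1, carries a treatment tag of normal and was kept as titled. Many genes with high levels in HC have a value of exactly 0 in the other sorts; 3 members reached 10 FPKM in HC (Itga5, Itgb1 and Itgb5), and each was above 0 in all 47 libraries of the other populations.

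Stellate cells led the laminins and several receptors. In normal liver their summed laminin level was 805 ± 210 FPKM (SD, n = 2), the highest mean of the 10 populations, followed by BEC at 672 ± 70.7 (SD, n = 4), cBEC at 606 ± 52.0 (SD, n = 4) and Thy1 at 567 ± 55.6 (SD, n = 2). The spread of HSC reached into that of BEC, whose libraries went up to 748 while the lower HSC library was at 657. At the other end HC summed to 4.32 ± 1.29 FPKM (SD, n = 4) and blood to 23.6 ± 3.01 (SD, n = 2). For the integrins blood was highest with 1887 ± 28.4 FPKM (SD, n = 2) and HC lowest with 89.7 ± 18.0 (SD, n = 4). Since these are bulk sorts, a lower level can mean fewer cells of a type or less RNA per cell, and the values cannot tell these apart.

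**Figure D1:**
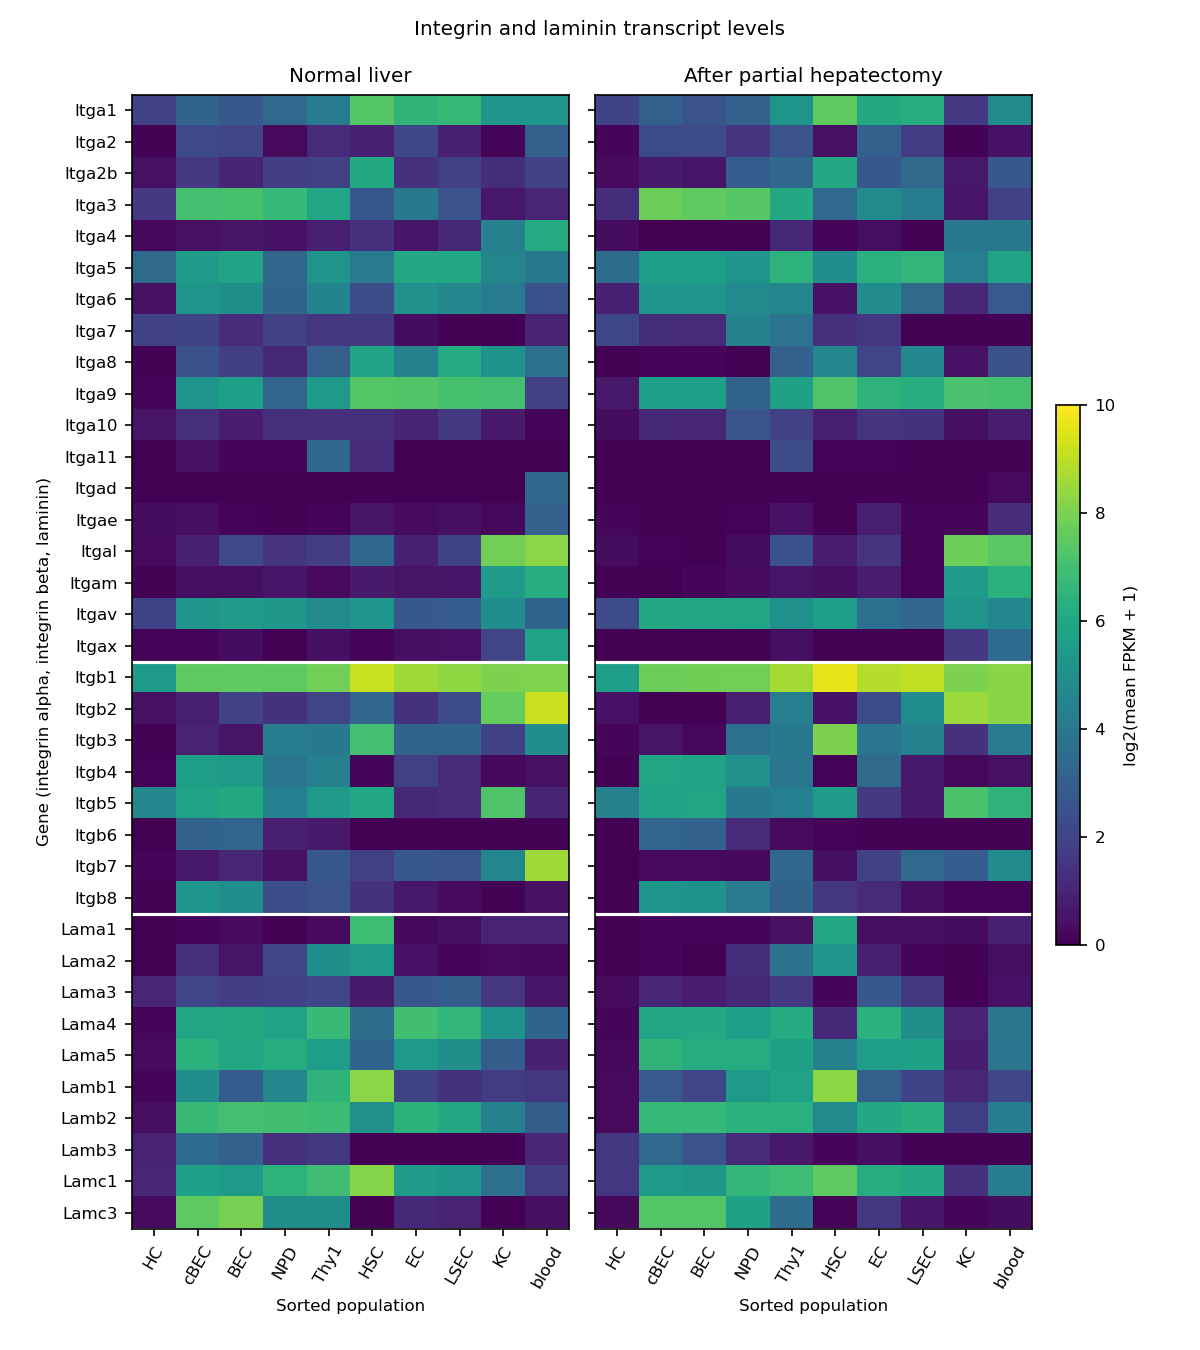
Mean level of 36 of the 37 genes (rows, with integrin alpha, integrin beta and laminin genes divided by white lines) in the 10 sorted populations (columns), in normal liver on the left and after PH on the right, as log2(mean FPKM + 1). Lama1 is bright in the HSC column of both panels and dark elsewhere. Itgb1 is lowest in HC, with means of 42.5 FPKM in normal liver and 46.7 after PH, and brighter in all other columns.

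Levels of 29 genes reached a group mean of 10 FPKM in normal liver, and 29 did so after PH. For 17 of those in normal liver and 12 after PH, the lowest library of the highest population lay above every library of every other population, which is called standing apart here. Of all genes that reached 10 FPKM, 46.4% stood apart in normal liver and 31.9% after PH. Of the 28 genes that reached 10 FPKM under both treatments, 21 had the same highest population in both. Using the mean of a symbol's rows in place of its highest row gave the same highest population for all 37 genes under both treatments.

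8 genes stood apart in HSC under both treatments: Itga1, Itga2b, Itgb1, Itgb3, Lama1, Lama2, Lamb1 and Lamc1. Lama1 (mm9 chr17:68046605-68171985, plus strand), the alpha chain best known from the early embryo, stood at 92.9 and 141 FPKM in the normal HSC libraries and at 67.5, 39.1 and 81.9 after PH. No library of any other population exceeded 1.51 FPKM of Lama1 in normal liver or 1.12 after PH. Lamb1 was at 244 and 360 FPKM in normal HSC, and the next population, Thy1, was at 109 and 69.4. Lamc1, the gamma chain of most laminins, was at 246 and 335 in normal HSC against at most 144 elsewhere. Lama2, the chain of muscle and stromal laminin, was close in the Thy1 cells, with 34.2 and 52.6 FPKM in normal HSC and 27.6 and 33.1 in normal Thy1. The leading laminin chains of normal HSC by level were therefore Lama1, Lamb1 and Lamc1, the set found in laminin-111.

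The collagen receptor alpha chain Itga1 (mm9 chr13:115748289-115892172) stood at 159 and 169 FPKM in normal HSC, and at most 122 in any other normal library. Its partner Itgb1 was at 442 and 705 FPKM there, above the 2 EC libraries at 407 and 363. Itgb3, the beta chain of the vitronectin and fibrinogen receptors, was at 125 and 136 FPKM in normal HSC and at 174, 364 and 232 after PH, while other populations reached at most 31.4 and 28.8.

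Itga2b (mm9 chr11:102314611-102331197, minus strand) is known as the platelet partner of Itgb3. It was at 51.6 and 81.4 FPKM in normal HSC and at 54.96, 88.3 and 52.9 after PH. In normal liver no other library exceeded 3.76 FPKM, and after PH the next population, LSEC, reached 13.4. In the same libraries the 5 genes of the platelet list summed to between 7.74 and 17.2 FPKM in normal HSC and to between 0 and 18.2 after PH, with Gp9 listed at 0 in all 5 libraries and Ppbp at 0 in both normal ones; their part in the Itga2b level was not tested.

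**Figure D2:**
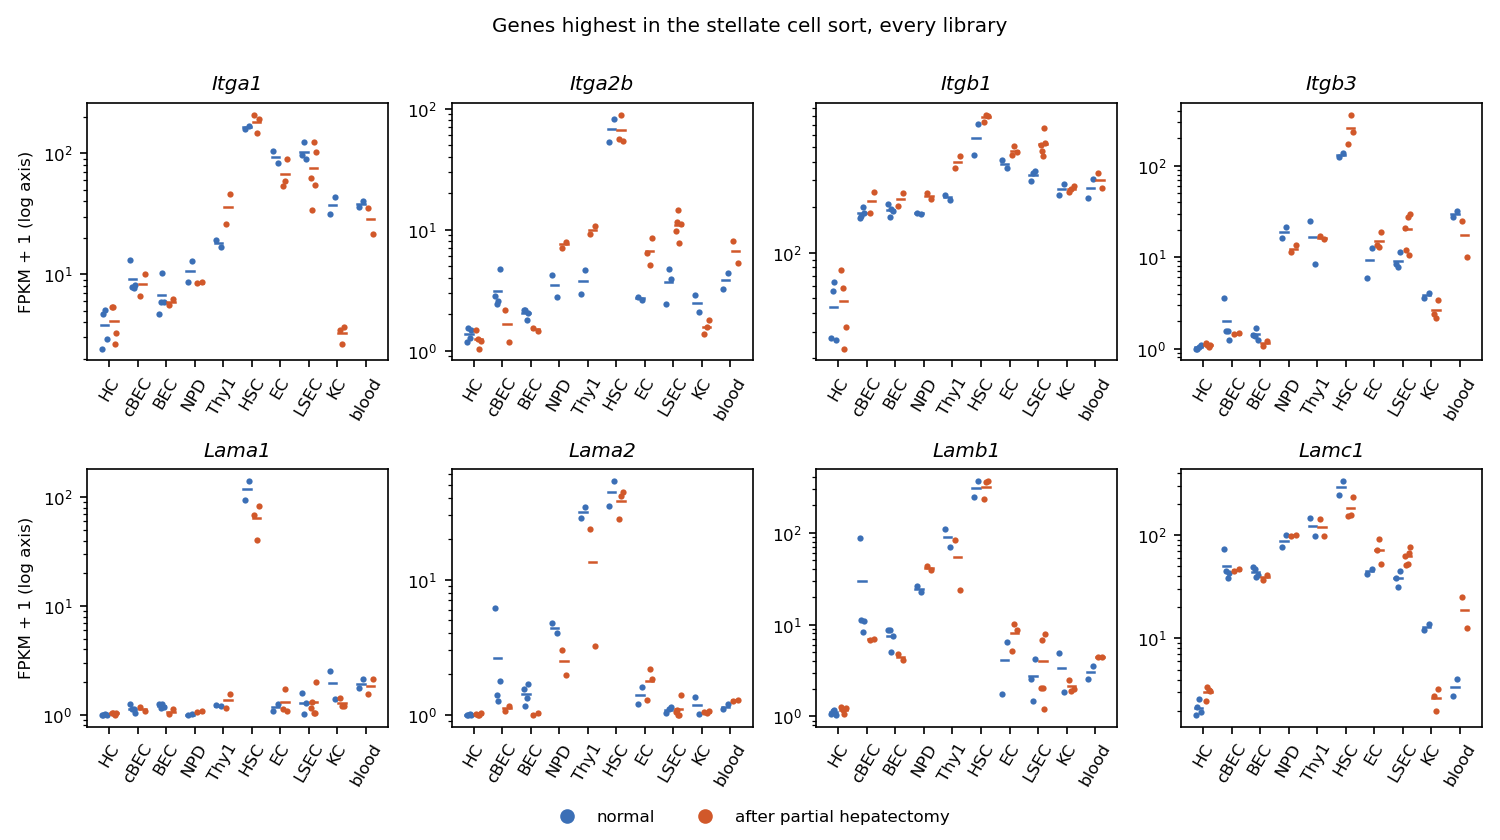
Level in every library (points) and group mean (bars) of the 8 genes that stood apart in HSC, on a log axis of FPKM + 1, with normal liver in blue and PH in orange. Within each treatment the HSC points are the highest, by a narrow margin for Itgb1 and Lama2 and by a wide one for Lama1; 1 normal cBEC library sits high for Lamb1.

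The duct sorts shared a set of chains, some of them as high in other sorts. Itga3, Itga6, Itgb4, Itgb8, Lama5, Lamb2 and Lamc3 had their highest normal mean in cBEC or BEC, as did Itgav, and so did Itgb6 and Lamb3 at lower levels. Itga6 was at 32.3 FPKM in EC and 30.8 in BEC, Lamb2 at 114 in Thy1 and 108 in cBEC, and Itgav at 36.8 in HSC and 36.3 in cBEC. Outside the duct sorts Itga3, Itgb4, Itgb8, Lama5 and Lamc3 were highest in Thy1, at 57.1, 19.4, 4.91, 47.7 and 29.6. Itga3, the alpha chain of an epithelial laminin receptor, was at 137, 165, 124 and 121 FPKM in normal BEC and at 130, 135, 133 and 124 in normal cBEC, so the 2 sorts overlapped. Itgb4, the hemidesmosome beta chain, was at 46.8, 46.0, 54.3 and 44.9 FPKM in normal cBEC and at 42.5, 44.4, 41.4 and 40.3 in normal BEC, just standing apart. Lamc3 (mm9 chr2:31742801-31802055, plus strand), the third gamma chain, was the highest laminin of both sorts, with 285, 271, 237 and 201 FPKM in normal BEC and 135, 264, 139 and 195 in normal cBEC. Other laminin chains of normal BEC ranged widely: Lamb3 was at 7.48 ± 1.52 and Lama3 at 2.54 ± 0.53 FPKM (SD, n = 4), while Lamb2 was at 133 ± 17.5, Lama4 at 67.3 ± 6.01 and Lama5 at 62.3 ± 10.2.

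Endothelial sorts expressed the alpha chains Itga5 (fibronectin receptor), Itga8 and Itga9, and the endothelial laminin chain Lama4, each of them also present in other sorts. Lama4 (mm9 chr10:38685321-38829994, plus strand) was at 122 and 128 FPKM in normal EC, at 98.8, 86.4 and 97.0 in normal LSEC, and at 136 and 76.0 in normal Thy1, so the EC and Thy1 ranges overlapped. It made up 71.6% of the laminin alpha sum in both normal EC and normal LSEC. Itga8 was highest in normal LSEC at 78.1, 94.8 and 39.5 FPKM, and overlapped HSC at 51.0 and 60.8. Its normal mean was 20.1 FPKM in EC, below 34.5 in KC. Itga5 was at 64.4 and 64.5 FPKM in normal EC, within the LSEC range of 58.3 to 65.7. Other normal means of Itga5 were 56.5 in BEC, 44.1 in cBEC and 35.4 in Thy1. After PH the Itga5 mean was 88.5 in Thy1 and 81.0 in EC. Itga9, a receptor for tenascin and VCAM1, had no single leading population: its normal means were 161 in HSC, 155 in EC, 135 in LSEC and 128 in KC.

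Among the myeloid and blood sorts, Itgb5 stood apart in KC, at 168 and 130 FPKM in normal liver and at 129, 132 and 165 after PH. In normal blood 6 genes stood apart, all of them leukocyte integrins: Itga4, Itgal, Itgam, Itgax, Itgb2 and Itgb7. Itgb2, the shared beta chain of the leukocyte family, was at 585 and 594 FPKM in normal blood and at 194 and 200 in normal KC. Itgal, the alpha chain of LFA-1, was at 309 and 301 in blood and 242 and 219 in KC, so its gap was small. Itgb7, the gut-homing beta chain, was at 402 and 367 in blood against 16.3 and 29.3 in KC. Hepatocytes expressed little of either family: besides Itgb1 at 42.5 ± 19.5, Itgb5 at 23.5 ± 4.19 and Itga5 at 10.1 ± 0.61 FPKM (SD, n = 4), no member reached 10 FPKM in normal HC.

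Pairs of populations in normal liver were compared with limma on log2(FPKM + 1), in a single fit of all 20 groups; a log2 difference below is on that scale, which understates the change of low genes, and a call is a Benjamini-Hochberg adjusted p under 0.05 over all genes tested. Biliary cells were compared with hepatocytes, the 2 epithelia of the liver. All 25 members tested were called, 24 higher and 1 lower in BEC (24 of 25 without overlap of libraries), where 84.6% of all genes tested were called and 81.0% had no overlap. The median log2 difference was 3.24 for the members and 1.35 for all genes. Laminins were among the largest. Lamc3 was 7.66 ± 0.28 (SE) higher, Lamb2 6.70 ± 0.19 and Lama4 5.91 ± 0.22, with adjusted p (limma) of 1e-25, 1.8e-29 and 1.9e-25. The 1 gene higher in HC was Itga7, a laminin receptor chain known from muscle, at 2.26, 2.96, 2.99 and 3.40 FPKM in HC and 1.69, 1.68, 0.95 and 1.32 in BEC; it is named here after its value was seen, and its call was lost with a pseudocount of 0.1 and without normal BEC 3. The summed FPKM of the normal HC libraries ran from 960918 to 1203197, and that of the normal BEC libraries from 708671 to 848630. HC columns are also rounded to 2 decimals. The part of these differences in scale and format was not tested. With quantile normalization the split was 18 higher and 3 lower, and the median of all genes was 0.18.

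In cBEC against NPD, 14 of 29 members tested were called, 11 higher and 3 lower in cBEC, where 37.6% of all genes were called. Chains of the duct sorts were among those higher in cBEC. Itgb8, a beta chain that activates latent TGF-beta, was at 28.7, 49.4, 34.8 and 34.4 FPKM in cBEC and 2.56 and 6.06 in NPD, a log2 difference of 2.89 ± 0.42 (SE). Lamc3 differed by 2.56 ± 0.35 and Itgb6, an epithelial beta chain, by 2.24 ± 0.18. Itgb3 had the largest difference and went the other way, with 2.59, 0.55, 0.57 and 0.23 FPKM in cBEC and 15.3 and 20.5 in NPD, a log2 difference of -3.37 ± 0.39. The adjusted p (limma) of these 4 ran from 3.1e-13 for Itgb6 to 3.1e-07 for Itgb8. The mesothelial list summed to between 5418 and 5668 FPKM in normal NPD and to between 139 and 458 in normal cBEC, with none of its 5 genes at 0 in either; its part in these differences was not tested.

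EC and LSEC are the 2 endothelial sorts. At an unadjusted p under 0.05 (limma) were 4 of 24 members tested and 1096 of all 11868 genes tested. Here Itga2, a collagen receptor chain, was the 1 member called, with 2.16% of all genes called. Its levels were 2.47 and 4.51 FPKM in EC and 0.16, 0.21 and 2.22 in LSEC, and the log2 difference was 1.40 ± 0.37 (SE; adjusted p 0.031, limma). The call was lost with a pseudocount of 0.1, with quantile normalization, in a fit of these groups alone, and without normal EC 2, normal LSEC 1 or normal LSEC 2, with adjusted p over all alternatives between 0.00092 and 0.9999. Without normal EC 1 there were 4 calls, without normal LSEC 3 there were 3, and with upper-quartile scaling 2.

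HSC and Thy1 cells differed in 20 of 32 members tested, 8 higher and 12 lower in HSC, with 36.9% of all genes called. With quantile normalization the split was 13 and 10, and a fit of these groups alone called 11. Lama1 was 6.57 ± 0.28 (SE) higher on the log2 scale (adjusted p 1.4e-21, limma), at 0.23 and 0.20 FPKM in Thy1. Duct-type chains were higher in Thy1. Itgb4 was at 22.7 and 16.0 FPKM there against 0.18 and 0 in HSC, with a log2 difference of -4.21 ± 0.36. Lamc3 was at 16.1 and 43.2 FPKM in Thy1 and listed at 0 in both normal HSC libraries (adjusted p 6.6e-13, limma). In the Thy1 libraries the 5 duct markers summed to between 616 and 796 FPKM and the mesothelial markers to between 1618 and 2753. The endothelial markers summed to between 955 and 1050 and the sinusoidal markers to between 723 and 1147. No marker of these lists was at 0, and their part was not tested.

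HSC and LSEC face each other across the sinusoidal space. Here 17 of 27 members tested were called, 10 higher and 7 lower in HSC, with 40.3% of all genes called. The laminin chains diverged by type: Lamb1 was 6.89 ± 0.67 (SE), Lama1 6.50 ± 0.26 and Lama2 5.31 ± 0.45 higher in HSC on the log2 scale, with adjusted p (limma) of 2.6e-11, 6.9e-23 and 5.6e-13. Lama4 was lower in HSC, with 9.43 and 12.6 FPKM there and 98.8, 86.4 and 97.0 in LSEC. Itgb5 was 4.71 ± 0.39 higher in HSC, at 47.0 and 75.7 FPKM against 2.19, 1.12 and 0.85.

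KC against blood gave 18 of 28 members called, 9 higher and 9 lower in KC, with 55.8% of all genes called. Itgb5 was 6.20 ± 0.42 (SE) and Itga9 5.15 ± 0.34 higher in KC on the log2 scale, while Itgb7 and Itgax were lower, with differences of -4.07 ± 0.41 and -3.70 ± 0.25. Itgax, the CD11c chain of dendritic cells, was at 3.35 and 3.20 FPKM in KC and 63.4 and 46.7 in blood. Adjusted p (limma) for these 4 ran from 1.2e-16 for Itga9 to 5.7e-11 for Itgb7. Sinusoidal markers summed to between 2877 and 3941 FPKM in normal KC and between 630 and 721 in normal blood, and endothelial markers to between 1181 and 1467 and between 207 and 217, with none at 0. Itga9 was also at a mean of 135 FPKM in normal LSEC. In KC its mean was 128 in normal and 140 in PH liver, where the sinusoidal markers summed to between 291 and 498. The part of endothelial cells was not tested.

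PH was then compared with normal liver within each population, using that population's libraries only. Calls among the members ranged from 0 in cBEC, HC, EC, HSC and Thy1 to 16 in blood. A test over all 20 groups of whether the change after PH differed between populations (limma, F test of 9 terms) called 23 of 37 members, where 47.8% of all genes were called.

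**Figure D3:**
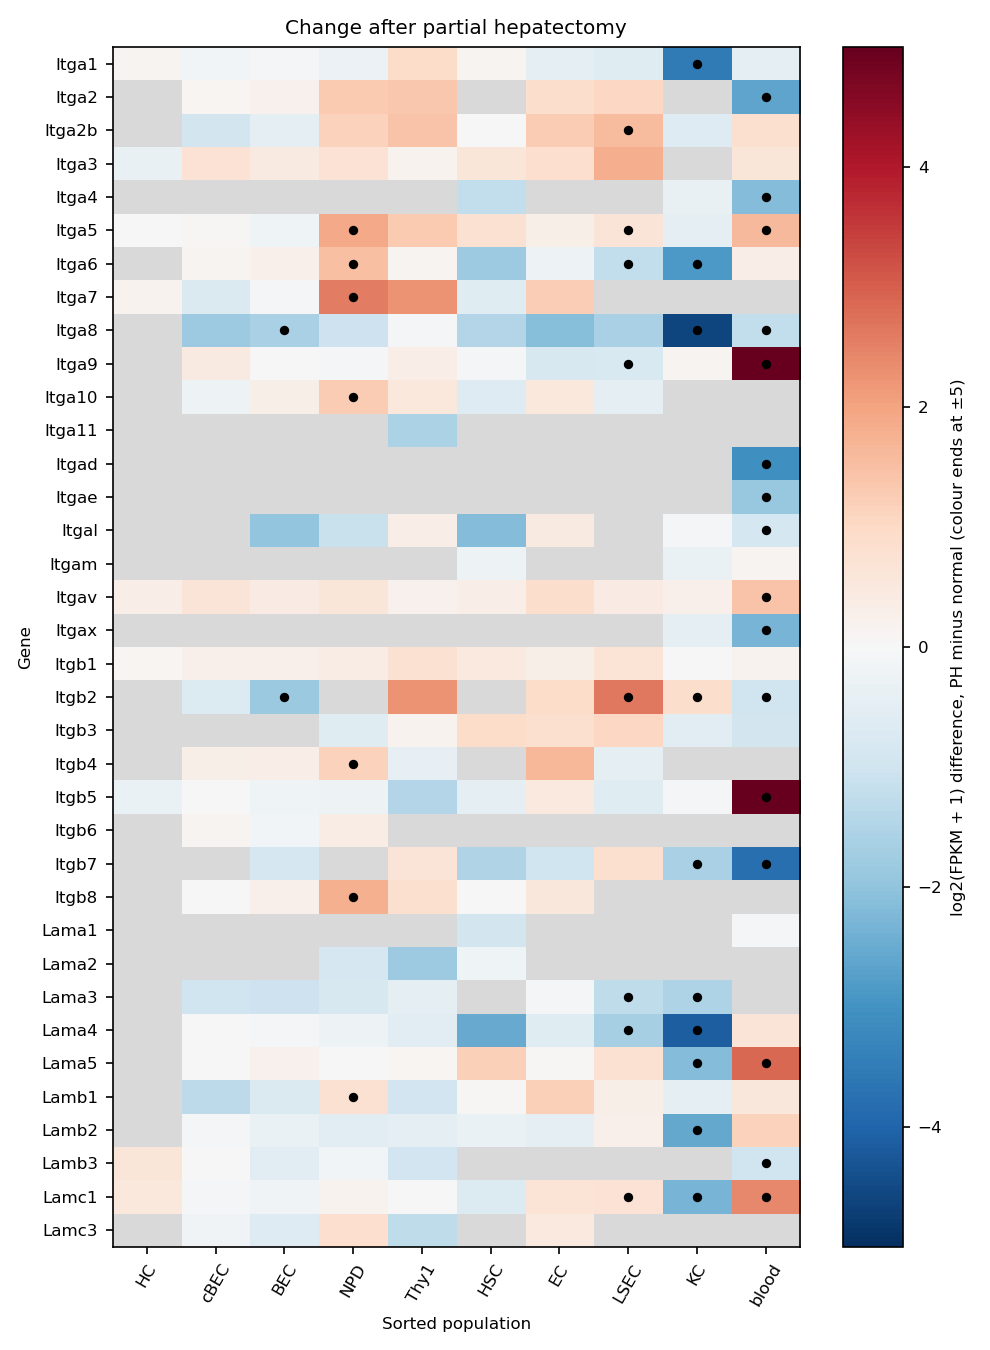
Change of each of 36 genes (rows) after PH in each population (columns), as the difference of log2(FPKM + 1), PH minus normal, with red higher and blue lower after PH. Black dots mark calls, grey fields were not tested for low level, and colour stops at 5; dots cluster in the blood, KC, LSEC and NPD columns.

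In NPD all 7 called members rose, out of 28 tested, with 15.2% of all genes called. Itga5, the fibronectin receptor chain, was at 8.60 and 9.35 FPKM in normal NPD and 36.0 and 35.6 after PH, a log2 difference of 1.89 ± 0.16 (SE; adjusted p 0.0087, limma). Itga7 was at 3.95 and 1.91 before and 21.2 and 21.3 after, a difference of 2.55 ± 0.30 (adjusted p 0.013, limma), and PH NPD was the one group in which Itga7 stood apart. PH Thy1 came second for Itga7. Thy1 means of normal and PH liver were 1.97 and 13.1 FPKM for Itga7 and 35.4 and 88.5 for Itga5, and neither was called in Thy1. Both chains of the hemidesmosome integrin rose in NPD. Itga6 went from 9.83 and 7.07 to 30.1 and 22.0 FPKM (log2 difference 1.52 ± 0.25) and Itgb4 from 14.4 and 13.4 to 31.2 and 32.3 (1.14 ± 0.16). Itgb8 went from 2.56 and 6.06 to 17.5 and 14.6 FPKM (1.76 ± 0.37), Itga10 from 1.89 and 1.21 to 5.27 and 4.89 (1.27 ± 0.28), and Lamb1 from 25.5 and 21.5 to 42.6 and 38.0 (0.75 ± 0.17). Adjusted p (limma) of these 5 lay between 0.017 and 0.045. The 2 groups overlapped for none of the 7, and for 64.5% of all genes tested in NPD there was no overlap either. All 7 lost their call without PH NPD 1 or without PH NPD 2, fits that leave 1 PH library. Without a filter on low values 4 members were called, beside 648 of all 17932 genes tested. Itga6, Itga10, Itgb8 and Lamb1 were the named genes that lost the call there. Itgb8 also lost it with upper-quartile scaling, and Lamb1 in a single fit of all groups. The duct markers summed to between 1218 and 1635 FPKM in normal and 2072 and 2455 in PH NPD, and the mesothelial markers to between 5418 and 5668 and between 3369 and 3794, with none at 0 and their part not tested.

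In LSEC, 8 of 22 members tested were called, 4 higher and 4 lower after PH, with 8.46% of all genes called; with upper-quartile scaling the split was 6 and 3. Lama4 fell most clearly. Its levels were 98.8, 86.4 and 97.0 FPKM in normal LSEC and 24.6, 33.8, 34.7, 28.6 and 26.4 after PH, a log2 difference of -1.65 ± 0.16 (SE; adjusted p 0.0012, limma). The other falls were Lama3, from 5.76, 7.52 and 6.89 to between 1.58 and 3.22 FPKM (-1.25 ± 0.22), Itga6, from 23.9, 22.0 and 27.4 to between 6.80 and 13.9 (-1.25 ± 0.24), and Itga9, from 152, 126 and 128 to between 59.9 and 93.1 (-0.77 ± 0.17). Thus a laminin receptor chain and 2 laminin alpha chains were lower after PH, with no overlap between groups; 18.8% of all genes tested in LSEC had none.

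Among the rises in LSEC, Itga5 went from 65.7, 58.3 and 59.5 to between 82.2 and 110 FPKM (log2 difference 0.63 ± 0.14, SE) and Lamc1 from 37.2, 30.4 and 43.9 to between 51.0 and 75.8 (0.71 ± 0.18). Itga2b went from 1.42, 3.76 and 2.87 to 8.66, 10.4, 13.4, 6.74 and 10.2 FPKM, a log2 difference of 1.59 ± 0.27. Itgb2 had the largest rise, from 3.88, 6.80 and 0.96 to 47.1, 20.7, 13.9, 37.8 and 19.98 FPKM, a log2 difference of 2.64 ± 0.49. Itgb2 is the leukocyte beta chain. Of its alpha partners in the 5 PH libraries, Itgal reached at most 0.34 FPKM, Itgam 0.15 and Itgax 0.12, and Itgad was listed at 0. Leukocyte lists had these values in the same libraries. The 4 dendritic genes summed to between 69.7 and 80.1 FPKM in normal and between 51.4 and 96.7 in PH LSEC, the latter with Cd209a at 0, beside 31.6 to 51.2 in PH blood. The 5 Kupffer genes summed to between 5.56 and 130 FPKM in normal and between 2.52 and 8.90 in PH LSEC, the 5 neutrophil genes to between 2.70 and 46.0 and between 0.16 and 2.58, and the 5 T and NK genes to between 0 and 15.2 and between 0 and 0.67; Ly6g was at 0 in both groups, and Cd3e and Ncr1 in all PH libraries. Platelet markers summed to between 0.41 and 3.43 FPKM in normal and between 0.54 and 4.96 in PH LSEC. The part of other cell types in the rises of Itgb2 and Itga2b was not tested.

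The adjusted p (limma) of the 8 LSEC genes lay between 0.0012 for Lama4 and 0.040 for Lamc1. Without normal LSEC 1 the count of called members was 3, and without normal LSEC 2 or PH LSEC 1 it was 5. Lama4, Lama3 and Itga2b kept their calls when any single library was left out. Itgb2 and Itga6 lost theirs without normal LSEC 1, Itga9 without any 1 of these 3 libraries and also with upper-quartile scaling, and Itga5 without those or normal LSEC 3 and in a single fit of all groups. Lamc1 lost its call without those 3 or PH LSEC 4 or 5, with no filter on low values and with quantile normalization.

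**Figure D4:**
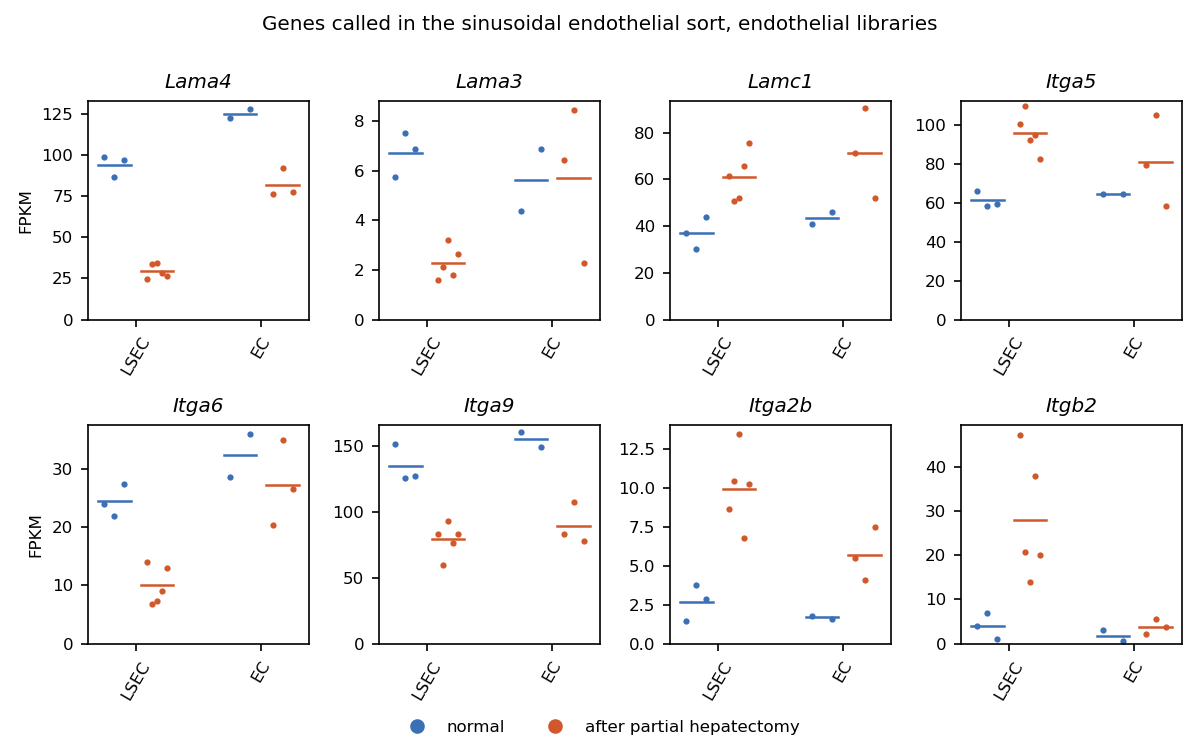
Level in FPKM of the 8 genes called in LSEC, in every LSEC and EC library (points) with the group mean (bars), normal in blue and PH in orange, on linear axes from 0. Lama4 drops from about 94.1 to 29.6 FPKM in LSEC, and Itgb2 rises in LSEC and stays below 6 FPKM in EC.

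In KC, 10 of 22 members tested were called, 9 lower and 1 higher after PH, with 36.8% of all genes called. The median log2 difference was -0.53 for the members and -0.04 for all genes. Itga8 fell from 22.7 and 46.3 FPKM to 0.34, 0.37 and 0.46, a log2 difference of -4.59 ± 0.32 (SE; adjusted p 0.0014, limma). Lama4 fell from 28.8 and 37.8 to 1.05, 0.41 and 1.59 FPKM (-4.12 ± 0.30), and Itga1 from 30.3 and 43.0 to 2.45, 1.64 and 2.63 (-3.53 ± 0.24). All 3 were also abundant in normal LSEC, with means of 70.8, 94.1 and 102 FPKM for Itga8, Lama4 and Itga1. The laminins Lamb2 (-2.56 ± 0.24), Lamc1 (-2.31 ± 0.26) and Lama5 (-2.17 ± 0.25), the receptor chain Itga6 (-2.85 ± 0.37) and Itgb7 (-1.62 ± 0.28) also fell, and so did Lama3. The summed laminin level of KC was 77.7 ± 7.41 FPKM (SD, n = 2) in normal and 7.77 ± 2.66 (SD, n = 3) in PH liver.

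Endothelial markers moved with these genes. The 5 sinusoidal markers summed to between 2877 and 3941 FPKM in normal and between 291 and 498 in PH KC. The 5 endothelial markers summed to between 1181 and 1467 and between 293 and 543. None was at 0, and their part was not tested. Itga9, at a mean of 135 FPKM in normal LSEC, was not called in KC, with means of 128 in normal and 140 in PH liver. Myeloid integrins had other values: Itgb2, called higher, was at 194 and 200 FPKM in normal KC and 321, 314 and 460 after PH (log2 difference 0.86 ± 0.20, SE; adjusted p 0.022, limma), and Itgb5 was at 168 and 130 and at 129, 132 and 165. The Kupffer markers summed to between 11590 and 12990 and between 19870 and 21640 FPKM. Without PH KC 3, 16 members were called, beside 6890 of all 11791 genes tested. Itgb7 lost its call without normal KC 2. Itgb2, named after its values were seen, was not called without normal KC 1, without normal KC 2 or in a single fit of all 20 groups.

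Blood gave the largest number of calls, 16 of 27 members tested, 6 higher and 10 lower after PH, with 64.0% of all genes called. The median log2 difference was 0.14 for the members, of the opposite sign to the balance of calls, and -0.31 for all genes. Integrin and laminin chains both rose. Itgb5, which stood apart in KC, was at 0.66 and 1.47 FPKM in normal and 68.8 and 109 in PH blood, a log2 difference of 5.44 ± 0.32 (SE; adjusted p 0.00085, limma), and Itga9 went from 1.97 and 3.46 to 126 and 143 (5.21 ± 0.25). Lama5 rose from 0.68 and 1.09 to 20.4 and 7.70 FPKM (2.86 ± 0.47) and Lamc1 from 1.76 and 3.07 to 24.3 and 11.6 (2.41 ± 0.41). Among the falls, Itgb7 went from 402 and 367 to 25.5 and 28.5 FPKM (-3.78 ± 0.15) and Itgad from 10.1 and 8.25 to 0.08 and 0.33 (-3.08 ± 0.22). Itga2 went from 7.35 and 8.09 to 0.49 and 0.33 (-2.63 ± 0.19) and Itgax from 63.4 and 46.7 to 8.43 and 12.0 (-2.32 ± 0.25). Itgam, the CD11b chain of neutrophils and monocytes, was at 73.5 and 76.4 FPKM in normal and 75.2 and 91.0 in PH blood and was not called.

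Several marker lists moved as well, some up and some down. The Kupffer markers summed to between 594 and 880 FPKM in normal and between 6763 and 11990 in PH blood, and the sinusoidal markers to between 630 and 721 and between 2289 and 5082. The T and NK markers summed to between 3153 and 3440 and between 39.7 and 86.3 FPKM, the 4 B-cell markers to between 542 and 780 and between 16.8 and 44.2, and the neutrophil markers to between 3578 and 3917 and between 954 and 2328, with no marker of these lists at 0. The 5 endothelial markers summed to between 207 and 217 FPKM in normal and between 944 and 1980 in PH blood. The 4 dendritic markers summed to between 197 and 312 and between 31.6 and 51.2 FPKM. The 5 platelet markers summed to between 6.42 and 8.59 and between 125 and 240 FPKM, with Gp6 at 0 in both groups. The part of these cell types in the integrin differences was not tested. Without normal blood 1 the count of called members was 5 and without normal blood 2 it was 6. Lama5 and Lamc1 lost their calls in both cases and Itgax without normal blood 1, while the other 5 named genes kept them.

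**Figure D5:**
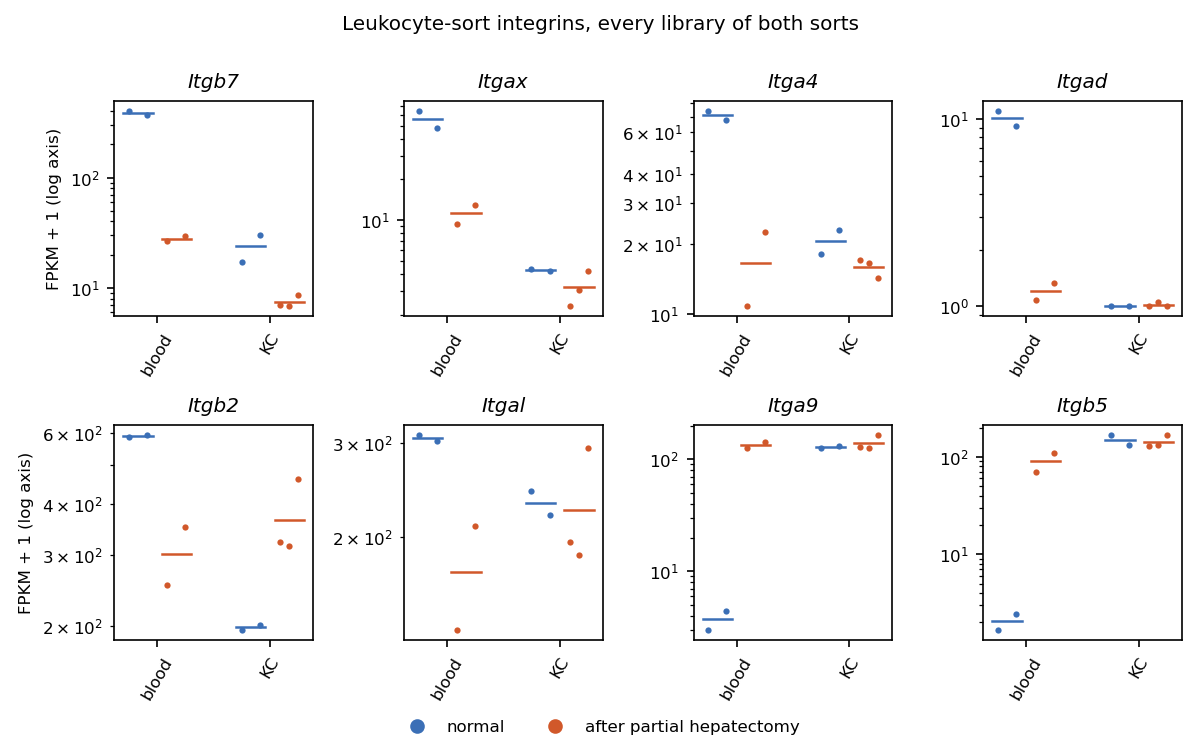
Level of 8 integrin genes in every blood and KC library (points) with the group mean (bars), on log axes of FPKM + 1, normal in blue and PH in orange. Itgb7, Itgax, Itga4 and Itgad are high in normal blood, and Itga9 and Itgb5 in PH blood lie in or near the range of KC.

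In BEC, 2 of 28 members tested were called, both lower after PH, with 1.81% of all genes called. Itga8 was at 2.67, 1.40, 2.98 and 3.25 FPKM in normal BEC and 0.03 and 0.26 after PH (log2 difference -1.62 ± 0.30, SE; adjusted p 0.041, limma). Itgb2 was at 1.83, 3.67, 4.37 and 1.51 FPKM and listed at 0 in both PH libraries (adjusted p 0.043). Neither was called without a filter on low values or with quantile normalization, nor without normal BEC 1, PH BEC 1 or PH BEC 2, nor was either in a single fit of all groups. Itga8 also lost its call without normal BEC 4 and Itgb2 without normal BEC 2. The Kupffer markers summed to between 124 and 336 FPKM in normal and between 43.8 and 50.4 in PH BEC, with Timd4 at 0 after PH, and the sinusoidal markers to between 69.0 and 279 and between 0.55 and 4.12, and their part was not tested. The duct chains of BEC gave no call: Itga3 was at 137, 165, 124 and 121 FPKM in normal and 171 and 206 in PH liver, and Lamc3 at 285, 271, 237 and 201 and at 130 and 185.

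No member passed in the other 5 populations. In cBEC 26 were tested and 2 had an unadjusted p under 0.05 (limma), as had 1346 of all 13225 genes tested, with 0.0681% of all genes called. The smallest p belonged to Itga3, at 130, 135, 133 and 124 FPKM in normal and 205 and 228 in PH liver (log2 difference 0.72 ± 0.16, SE, adjusted p 0.30, limma). The groups did not overlap for Itga3, as for 7 of the 26 members tested in cBEC. The share of all genes without overlap was not computed for cBEC. In HC 9 were tested and 2 had an unadjusted p under 0.05 (limma), as had 2157 of all 10029 genes tested, with 6.19% of all genes called. Lamc1 had the smallest p there, at 0.82, 1.16, 1.61 and 0.93 FPKM in normal and 1.47, 2.40, 2.17 and 2.07 after PH (0.51 ± 0.19; adjusted p 0.15), and the groups overlapped.

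In EC 27 were tested and 8 had an unadjusted p under 0.05 (limma), as had 1297 of all 12064 genes tested, with 0.0249% of all genes called. Itga2b had the smallest p, at 1.795 and 1.59 FPKM in normal and 5.46, 4.05 and 7.48 in PH EC (log2 difference 1.27 ± 0.31, SE; adjusted p 0.25, limma). Its 2 groups did not overlap, as for 13 of the 27 members tested in EC. The share of all genes without overlap was not computed for EC. Lama4 was at 122 and 128 FPKM in normal and 76.4, 91.9 and 77.4 in PH EC, a log2 difference of -0.61 ± 0.18, beside -1.65 ± 0.16 in LSEC. A single fit of all 20 groups called Itga2b in EC, and 3 members in all, beside 219 of all 12064 genes tested.

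In HSC 25 were tested and 7 had an unadjusted p under 0.05 (limma), as had 995 of all 11729 genes tested, with 0.00853% of all genes called. Lama4 had the smallest p, at 9.43 and 12.6 FPKM in normal and 1.51, 0.17 and 2.02 in PH HSC (log2 difference -2.52 ± 0.69, SE; adjusted p 0.43, limma). A single fit of all groups called it, with 6 members in all, beside 1940 of all 11729 genes tested. Sinusoidal markers in HSC summed to between 152 and 851 FPKM in normal and between 6.67 and 64.5 after PH, with none at 0, and their part was not tested. The laminin chains that stood apart in HSC gave no call; Lamb1, for example, was at 244 and 360 FPKM in normal and 230, 351 and 366 after PH.

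In Thy1 cells 30 were tested and 7 had an unadjusted p under 0.05 (limma), as had 2417 of all 13389 genes tested, with 0.00747% of all genes called. Itgb2 had the smallest p, at 4.11 and 2.31 FPKM in normal and 18.4 and 18.6 after PH (log2 difference 2.25 ± 0.32, SE; adjusted p 0.13, limma). A single fit of all groups called it, with 10 members in all, beside 1749 of all 13389 genes tested. The T and NK markers scored 0.86 and 1.28 there and the Kupffer markers 3.71 and 0.86, in normal and PH liver.

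Genes that work with integrins and laminins were read from 3 lists: 20 focal adhesion adaptors, 13 basement membrane partners of laminin and 17 counter-receptors and soluble ligands. In NPD 4 of 12 basement membrane genes tested rose and none fell (median log2 difference 0.42, against 0.09 over all genes, of which 15.2% were called). Col4a1, a chain of the collagen IV network, was at 23.7 ± 3.01 FPKM in normal and 127 ± 25.9 in PH NPD (SD, n = 2 each), and Col4a2 and the perlecan gene Hspg2 rose by 2.003 ± 0.22 and 1.86 ± 0.18 (SE) on the log2 scale. Among the ligands of NPD 3 of 10 rose and 2 fell, and Vcam1, the ligand of the Itga4 integrins, was at 8.54 ± 3.93 and 100 ± 37.7 FPKM (SD, n = 2 each). Among the adaptors of NPD 1 of 19 rose and 2 fell.

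In LSEC 4 of 12 basement membrane genes tested rose and none fell (median 0.14 on the log2 scale, against -0.03 over all genes, of which 8.46% were called), in the same libraries in which Lama4 fell. Bcam, a cell-surface receptor for Lama5, was at 68.2 ± 39.1 FPKM in normal (SD, n = 3) and 799 ± 269 in PH LSEC (SD, n = 5), a log2 difference of 3.64 ± 0.41 (SE; adjusted p 0.0018, limma). Plec and Col4a2 rose by 1.76 ± 0.35 and 1.33 ± 0.28. None of the 17 adaptors tested was called in LSEC (limma). At an unadjusted p under 0.05 were 6 of them, as were 2864 of all 11501 genes tested. Of 10 ligands 1 was called, the TGF-beta binding protein Ltbp1, higher after PH.

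In KC 9 of 11 basement membrane genes tested fell and none rose (median -2.32 on the log2 scale, against -0.04 over all genes, of which 36.8% were called). Hspg2 was at 89.1 ± 19.3 FPKM in normal (SD, n = 2) and 3.98 ± 3.06 in PH KC (SD, n = 3), and Nid1 and Col4a1 fell as well, by 3.39 and 3.23 on the log2 scale. The adaptors of KC gave 2 rises and 9 falls among 19, and the ligands 1 rise and 4 falls among 9. Blood went the other way, with 11 of 12 basement membrane genes higher and 1 lower (median 2.14, against -0.31 over all genes, of which 64.0% were called). Its adaptors gave 7 rises and 7 falls among 19, a share near that of all genes. Parvb, the affixin gene, was at 0.31 ± 0.06 FPKM in normal and 58.2 ± 7.37 in PH blood (SD, n = 2 each). The ligands of blood gave 5 rises and 1 fall among 9, likewise near it. The endothelial and Kupffer markers given above for both sorts apply here as well.

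In HC 1 of 9 basement membrane genes and 3 of 8 ligands tested rose and none fell, where 6.19% of all genes were called. They were Nid1, Icam1, the ligand of the Itgb2 integrins, and the fibrinogen chains Fgb and Fgg, the last at 3438 ± 679 FPKM in normal and 8476 ± 2269 in PH HC (SD, n = 4 each; log2 difference 1.29 ± 0.25, SE; adjusted p 0.014, limma). No gene of the 3 lists was called in cBEC, BEC, EC, HSC or Thy1 (limma). There 6 of 41, 17 of 40, 9 of 42, 8 of 39 and 10 of 44 genes tested had an unadjusted p under 0.05. Over all genes tested these were, in the same order, 1346 of 13225, 2097 of 12851, 1297 of 12064, 995 of 11729 and 2417 of 13389.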

How the data were processed

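RNA from 10 FACS-sorted liver populations was lysed in TRIzol and made into libraries with an Illumina method, per the labels. The authors deposited FPKM values in a table of 36141 transcript rows and 55 sample columns; its unit comes from its name, and the counter and filters are not given in the sources used here. The submitters' processing notes name CASAVA 1.8.2, Bowtie 1.0.0 and mm9, without roles. Table starts count from 0, so 1 was added. HC columns are rounded to 2 decimals.

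Groups follow sample titles. The members and gene lists were chosen with earlier results of these data known. Two-sided moderated tests of log2(FPKM + 1) came from limma 3.58.1 (R 4.3.3) with trended, robust variances; genes needed 1 FPKM in at least as many compared libraries as the smaller group has. No separate animals are stated, so p-values measure spread between libraries that may be technical. The read depth is unknown. Named were members past 0.05 (above 8, the 8 largest changes; with none, the smallest p), the 4 largest per population pair, and up to 3 genes per list. The fits were tested on simulated data. Figures used Python 3.11.15 and matplotlib 3.10.9. Lama3 sequence and proteins were not used here, and values of 1 member are not reported here, though it is part of the counts and sums.

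The alternatives were upper-quartile scaling, quantile normalization, a smaller pseudocount (0.1), no filter on low values, the mean over a symbol's rows, another set of groups in the fit, a replicate block, 19570 genes under 10 FPKM in both HC groups, and leaving out each library.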

Additional observations from a re-analysis of the deposited data

Results flagged for a closer look

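In 89 sets of 4 or 5 libraries of 1 gene in 1 group, 4 held a library far from the others, where chance gives about 4.5. Lamb1 was at 87.6 FPKM in normal cBEC 1 and at 7.28 to 10.2 in the other 3, and Itga1 was at 12.1 in the same library against 6.64 to 7.13. The mesothelial list scored 6.12 in normal cBEC 1 and 4.17 to 4.73 in the other 3, the Thy1 and portal fibroblast list 4.77 against 1.99 to 2.62, and the stellate list 3.35 against 1.49 to 2.56; their part was not tested. Itga2b was at 3.69 FPKM in normal cBEC 4, against 1.44 to 1.81, and this was the 1 normal cBEC library in which the hepatocyte list scored above 0 (3.19). The mean of Itga2b in normal HC was 0.37 FPKM, and the part of hepatocytes was not tested. Itgav was at 27.9 FPKM in normal BEC 2, against 47.4 to 51.1.

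The change after PH differed between populations for 23 of 37 genes (limma, F test over 9 terms, adjusted p), where 47.8% of all genes tested were called. Among the integrin alpha chains the adjusted p was 2.5e-22 for Itgad, 1.8e-12 for Itga9, 2.1e-09 for Itga6, 4.3e-07 for Itga7, 7.3e-07 for Itga2b, 3.4e-06 for Itga1, 4.0e-06 for Itga2, 8.2e-06 for Itgax, 0.00045 for Itgae, 0.00046 for Itga5, 0.0010 for Itga4 and 0.0017 for Itga8. Among the beta chains it was 1.5e-10 for Itgb5, 1.4e-07 for Itgb7, 1.5e-05 for Itgb2, 0.0027 for Itgb4 and 0.020 for Itgb3. Among the laminins it was 3.6e-12 for Lama4, 9.0e-10 for Lamc1, 3.4e-08 for Lamb2, 0.00027 for Lama5, 0.0019 for Lamb3 and 0.048 for Lama3. Lama4 had log2 differences from -4.12 in KC to 0.64 in blood.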

How the results depend on the processing

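None of the named genes reversed direction under any alternative. Over 447 alternatives that left out no library, 416 kept call and direction for the 59 named results, 27 lost the call and 4 gained it; of 317 values with 1 library left out, 272 kept it and 45 lost it. Of 128 counts of called members, 111 stayed within 1.5 times. In a single fit of all 20 groups the count was 1 in cBEC, 1 in BEC, 1 in HC, 3 in EC, 6 in HSC and 10 in Thy1. The same fit called 535 of 13225 genes tested in cBEC, 348 of 12851 in BEC and 1364 of 10029 in HC. It called 219 of 12064 in EC, 1940 of 11729 in HSC and 1749 of 13389 in Thy1. With no filter the count of called members was 0 in BEC and 4 in NPD, and with quantile normalization 0 in BEC. For EC against LSEC it was 0 with a pseudocount of 0.1, 0 with quantile normalization, 2 with upper-quartile scaling and 0 in a fit of those groups only, where HSC against Thy1 gave 11. With the replicate block the count was 5 in BEC, 0 in LSEC and 2 in Thy1. Of all genes tested that block called 1027 of 12851 in BEC, 3 of 11501 in LSEC and 485 of 13389 in Thy1. The replicate numbers share no stated source. Deviations of same-numbered libraries correlated at -0.65 to 0.50 in HC, below 0 in LSEC and blood, and with either sign in EC and KC. In cBEC, BEC, NPD, Thy1 and HSC they correlated at 0.03 to 0.13, and each library correlated best with its own number. The numbers were not taken as pairs, since no shared source is stated. Only HC and LSEC have 3 or more shared numbers, and neither had every correlation over 0.1. In NPD, Thy1 and blood, with 2 libraries per group, both correlations are equal by construction and their sign fixes the best match. In populations with 2 shared numbers these correlations cannot decide whether the libraries are paired. Leaving out 1 library gave 0 to 2 calls in BEC, 0 to 13 in NPD, 0 to 1 in HC (1 without PH HC 1), 3 to 12 in LSEC, 8 to 16 in KC, 5 to 19 in blood and 0 to 4 for EC against LSEC. Quantile normalization moved the median log2 difference of all genes from -0.31 to -0.14 in blood, from -0.04 to 0.09 in KC, from -0.12 to 0.03 in BEC, from -0.11 to 0.05 in cBEC and from 0.09 to -0.02 in NPD. In the population pairs it moved it from 1.35 to 0.18 for BEC against HC, from -0.37 to 0.11 for HSC against Thy1, from -0.40 to -0.14 for KC against blood, from 0.25 to 0.10 for cBEC against NPD and from -0.20 to -0.09 for HSC against LSEC; upper-quartile scaling moved it from 0.02 to 0.16 for EC against LSEC. Without PH cBEC 1 the test of differing responses called 23 members. Itga5, Itgb1 and Itgb5 have no value under the hepatocyte limit.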
